A study of Mus musculus with 4 samples.

Results

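The cells described here are Mmp12 and Gpnmb macrophages of mouse KPC tumors, a small group of C1q-low myeloid cells that carried transcripts of matrix proteases. They were selected on their measured UMIs (unique molecular identifiers, each 1 captured transcript): a barcode was a member when at least 2 of the 4 genes Mmp12, Mmp13, Gpnmb and Pgf had a UMI, C1qa, C1qb and C1qc together stayed under 10 per 10000 UMIs, Csf1r had a UMI or Lyz2 reached 5 per 10000, and Cd3e, Cxcr2 and Flt3 were at 0. In all, 951 of 51841 barcodes with 300 to 5000 genes and at most 6% mitochondrial UMIs met the rule, which is 1.83%. Untreated tumors gave 84 members, the STING agonist 383, the LTbR agonist 282 and the STING and LTbR agonist 202. Because the rule used these genes, their levels below are a description of how the cells were picked and not a result.

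All 4 libraries were made from live CD45+ leukocytes sorted from subcutaneous tumors of the KPC line, which derives from a mouse pancreatic tumor that carried Trp53 LSL-R172H, switched on by Cre from the Pdx1 promoter, grown in adult male C57BL/6NHsd mice that themselves carry no engineered allele. Mice received no agonist, 1 intratumoral injection of 2 μg of the STING agonist ADU-S100, 4 intraperitoneal injections of 100 μg of the LTbR agonist antibody 4H8, or both regimens, and tumors were taken on day 14. The cells of 10 tumors were pooled into 1 library per group, so no spread between mice can be measured and no test between groups was made. Every interval below covers the error of counting UMIs or cells only.

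Macrophages of this kind are known from wounds, lungs and tumors. Mmp12 (macrophage elastase) and Mmp13 (collagenase 3) cleave elastin and collagen, Gpnmb is a membrane glycoprotein of endosomes and lysosomes, and Pgf is a placental growth factor of the VEGF family that binds Flt1. The C1q genes encode the start of the classical complement pathway and are known from mature tissue macrophages. Hmox1 degrades heme, and Inhba encodes the subunit of activin A; both were given as markers of these cells but were not used to pick them.

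The start regions of the marker genes are shown because the label places them in 1 program. RefSeq windows on GRCm38.p6, from 250 bases before to 50 bases after each annotated start, were found for 5 of the 6 markers (7 windows, as Mmp12 and Pgf have more than 1 start), and Hmox1 had no entry. The AP-1 motif TGANTCA (N for any base, both strands) occurred in windows of 3 markers, Mmp12, Mmp13 and Gpnmb, and in 7.81% of all 32851 windows. It began 35 bases before the Mmp13 start, 44 bases before 1 of the Mmp12 starts and 8 bases after the Gpnmb start. Capitals mark the match in the Mmp13 stretch at chr9:7272449-7272515 and the Mmp12 stretch at chr9:7347300-7347366, both on the plus strand:
Mmp13: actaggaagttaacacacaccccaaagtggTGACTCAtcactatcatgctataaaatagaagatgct
Mmp12: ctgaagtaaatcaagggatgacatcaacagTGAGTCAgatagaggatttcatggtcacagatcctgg
The same Mmp12 window also held a match to the TFE/MITF letters CACGTG or CATGTG, 83 bases before the start, and 20.4% of all windows held either. A Pgf window held the antioxidant letters TGACNNNGC, present in 12.4% of windows, and the hypoxia letters NACGTGC, present in 5.91%, were in none of the 7. A match is a run of letters and not a measured site, and Inhba had none of these motifs in its window.

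Members were most frequent in tumors given the STING agonist. As a share of gated myeloid cells (the same Csf1r, Lyz2, Cd3e, Cxcr2 and Flt3 conditions), members were 2.10% of 4000 cells in the untreated library (95% exact Clopper-Pearson interval 1.68 to 2.59), 6.12% of 6255 with the STING agonist (5.54 to 6.75), 3.64% of 7738 with the LTbR agonist (3.24 to 4.09) and 2.25% of 8993 with both (1.95 to 2.57). The STING and LTbR libraries lay above the untreated library, and the intervals of the combination and untreated libraries overlapped. The share was 2.92 times the untreated share with the STING agonist (log-normal 95% interval 2.31 to 3.68), 1.74 times with the LTbR agonist (1.36 to 2.21) and 1.07 times with both (0.832 to 1.38). The combination stood at 0.367 of the STING agonist share (0.310 to 0.434) and 0.616 of the LTbR agonist share (0.516 to 0.736). A share cannot tell more members from fewer other myeloid cells.

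Depth was not even across the libraries, and detection of 2 genes depends on it. Members had a median of 6406.5 UMIs in the untreated library, 7265 with the STING agonist, 5374 with the LTbR agonist and 3301 with the combination. After each cell was thinned to 2000 UMIs, leaving out shallower cells, the shares were 1.43%, 3.63%, 2.22% and 1.71% in the same order, and the combination then stood at 0.472 of the STING agonist share. The order of the 4 libraries was the same with and without thinning, and the untreated and combination shares overlapped in both. As a measure of free RNA, at least 2 of the 4 genes had a UMI in 0 of 857 untreated T cells, which allows a share of up to 0.350%, and in 0.519% of 385, 0.337% of 1186 and 0.716% of 698 T cells of the STING, LTbR and combination libraries, against 12.2% to 19.2% of gated myeloid cells. The T cells used here had a UMI of Cd3e, a UMI of Trac or Trbc2 and none of Csf1r. T cells with free Csf1r RNA were thus left out, and the T cell shares can be too low. The member shares, which also require low C1q, were 2.10%, 6.12%, 3.64% and 2.25%, and the part of free RNA in them was not tested. The median depth of those T cells was 4333, 4568, 3476.5 and 2334.5 UMIs, against 6529.5, 6472, 4769 and 2853 for the gated cells.

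**Figure D1:**
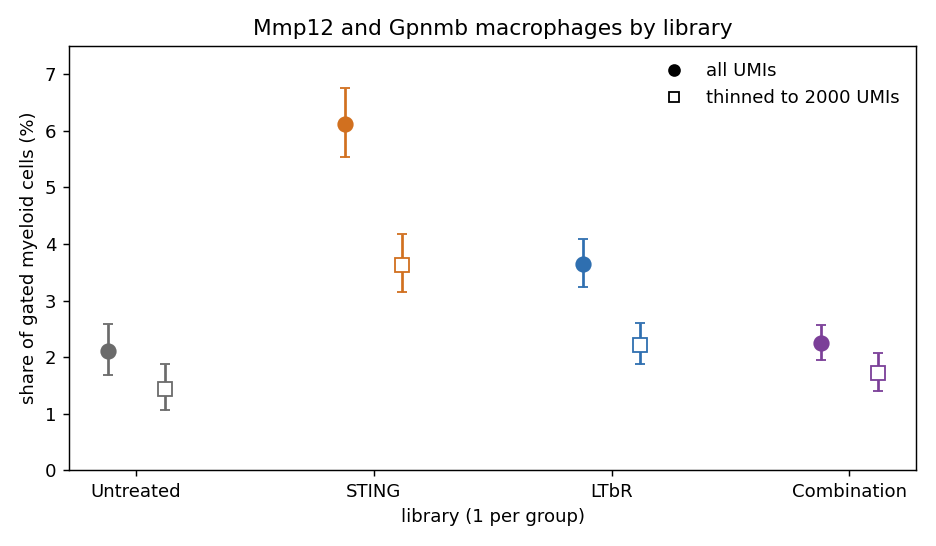
Members as a share of gated myeloid cells (y axis, %) in the 4 libraries (x axis), with all UMIs (filled circles) and after thinning each cell to 2000 UMIs (open squares); bars are 95% exact binomial intervals. The STING agonist library lies highest on both scales, at 6.12% and 3.63%.

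The C1q limit also split cells with the protease genes differently by library. Among gated cells with at least 2 of the 4 genes, C1q-low cells made up 16.9% of 498 in the untreated library (13.7 to 20.5), 31.9% of 1200 with the STING agonist (29.3 to 34.6), 24.7% of 1144 with the LTbR agonist (22.2 to 27.3) and 18.4% of 1095 with the combination (16.2 to 20.9). In every library most cells with these genes were therefore C1q-high and fell outside the rule. Cells just inside the limit (8 to 10 per 10000, 55 cells) had 1370 CPM of Inhba and 1286 CPM of Apoe, and cells just outside it (10 to 12 per 10000, 55 cells) had 1092 and 2036 CPM, where CPM is the gene's UMIs per 1000000 UMIs of the cells summed. Across the other limit, C1q-low cells with exactly 2 of the 4 genes (691 cells) had 2014 CPM of Inhba and 528 CPM of Hmox1, those with 1 of the 4 (1992 cells) had 1206 and 295, and those with 0 (9491 cells) had 391 and 122.

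Most members passed the rule on the smallest number of genes it allows. Exactly 2 of the 4 genes had a UMI in 70.2% of untreated members, 74.4% with the STING agonist, 71.6% with the LTbR agonist and 71.8% with the combination, and all 4 had one in 4.76%, 4.44%, 4.61% and 3.96%. Mmp12 carried the selection: it was detected in 74 of 84, 344 of 383, 257 of 282 and 181 of 202 members. Gpnmb, the other gene of the label, was detected in 29.8% of untreated members, 46.0% with the STING agonist, 40.1% with the LTbR agonist and 36.1% with the combination, so in each library most members had no Gpnmb UMI. Mmp12 and Mmp13 alone were the most common pair in the untreated (29.8%), STING (26.9%) and LTbR (27.3%) libraries, and Mmp12 and Pgf in the combination library (28.7%).

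The levels of the 4 genes were of the same order in all libraries. Mmp12 was at 3440 CPM in untreated members, 2437 with the STING agonist, 2942 with the LTbR agonist and 3233 with the combination. Mmp13 was at 1245, 831, 735 and 945 CPM, highest in untreated members. Gpnmb was at 202, 357, 319 and 261 CPM, lowest in untreated members, and Pgf was at 294, 205, 331 and 523 CPM, highest with the combination. None of them reached a log2 ratio of 1 in either direction between a treated and the untreated library, and Pgf was 1.35 higher (1.17 to 1.53) in the combination than in the STING library on the log2 scale.

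The 2 markers that the rule did not use were both higher in members than in either neighbouring group of myeloid cells, in each of the 4 libraries. They were given with the rule, which was chosen with earlier results of these data known. Their levels therefore describe the selected cells and are no independent check of them. The neighbours were C1q-high macrophages (14552 cells, C1q genes at 10 per 10000 or more) and C1q-low myeloid cells with fewer than 2 of the 4 genes (11483 cells). The C1q-high group had no limit on the 4 genes, so it also holds the C1q-high cells with at least 2 of them. Inhba was at 1367 CPM in untreated members, 2344 with the STING agonist, 2186 with the LTbR agonist and 1939 with the combination, against 70.9, 384, 195 and 159 CPM in C1q-high macrophages and 247, 865, 565 and 429 CPM in the C1q-low cells. Hmox1 was at 677, 596, 582 and 705 CPM in members, against 184, 256, 197 and 135 CPM in C1q-high macrophages and 139, 215, 143 and 133 CPM in the C1q-low cells. The members' values did not overlap those of either neighbour for the 2 genes. At 2000 UMIs a cell, Inhba was detected in 48.1%, 70.4%, 61.3% and 62.8% of members and in 0%, 2.20%, 1.05% and 2.56% of T cells of the same libraries. Of 14 macrophage identity genes 0 were higher and 2 were lower (Adgre1 and Aif1) in members than in C1q-high macrophages in all 4 libraries, where 1.89% of all genes were higher and 2.35% were lower. The lysosomal glycoprotein Cd68 was at 424 to 583 CPM in members, and Adgre1 (F4/80) was at 44.2 to 89.7 CPM against 176 to 300 CPM in C1q-high macrophages.

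Across all genes, the members were compared with their neighbours within each library and a gene was counted when the log2 ratio was at least 1, or at most -1, in all 4. Of 10018 genes with at least 400 UMIs over both groups, 189 (1.89%) were higher in members than in C1q-high macrophages and 235 (2.35%) were lower. Of 8512 genes against the C1q-low cells, 105 (1.23%) were higher and 95 (1.12%) were lower. The contrast is the one the rule was drawn on, so these counts describe the selected cells. Beside the rule genes, the largest median log2 ratios over C1q-high macrophages were those of Serpinb2 (5.51), the inhibitor of plasminogen activators PAI-2, Cxcl3 (4.40), a ligand of the neutrophil receptor Cxcr2, Inhba (3.55), the melanosome regulator Mreg (3.52), the eosinophil attractant Ccl24 (3.40), caveolin Cav1 (3.30), the gap junction protein Gja1 (3.30), the leukocyte protease inhibitor Slpi (3.21) and the adhesion receptor Adgrl2 (3.20). Serpinb2 was at 170, 220, 94.4 and 156 CPM in members and at no more than 6.99 CPM in C1q-high macrophages of any library, though 62.0% of its untreated UMIs came from 1 of the 4 untreated members that had any. On the low side, beside C1q, stood the complement component C6 (-4.05), Negr1 (-3.94), the receptor Tlr12 (-3.91), the monocyte attractant Ccl8 (-3.75), Lilra5 (-3.52), Gbp2b (-3.50) and cholesterol 25-hydroxylase Ch25h (-3.46). C6 had no UMI in members of the LTbR and combination libraries, Negr1 none in untreated members and Tlr12 none with the combination. There the ratio depends on the 0.5 UMI added to each sum.

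Against C1q-low myeloid cells the highest genes outside the rule were the platelet factor Pf4 (median log2 ratio 3.30), the creatine transporter Slc6a8 (3.20), Serpinb2 (3.08), metallothionein Mt2 (2.97), the lysosomal proton pump subunit Atp6v0d2 (2.94) and Pmp22 (2.92). The lowest median log2 ratios were those of Adgre4 (-3.76), Cyp7b1 (-3.74), Asprv1 (-3.47), Ly6a2 (-3.14), Sirpd (-2.88), Pglyrp1 (-2.68), Gzmb (-2.63), Ltf (-2.57) and Gimap3 (-2.56). Several of these low genes were at 0 UMIs in 1 or more libraries of members, where the ratio depends on the 0.5 UMI added to each sum.

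**Figure D2:**
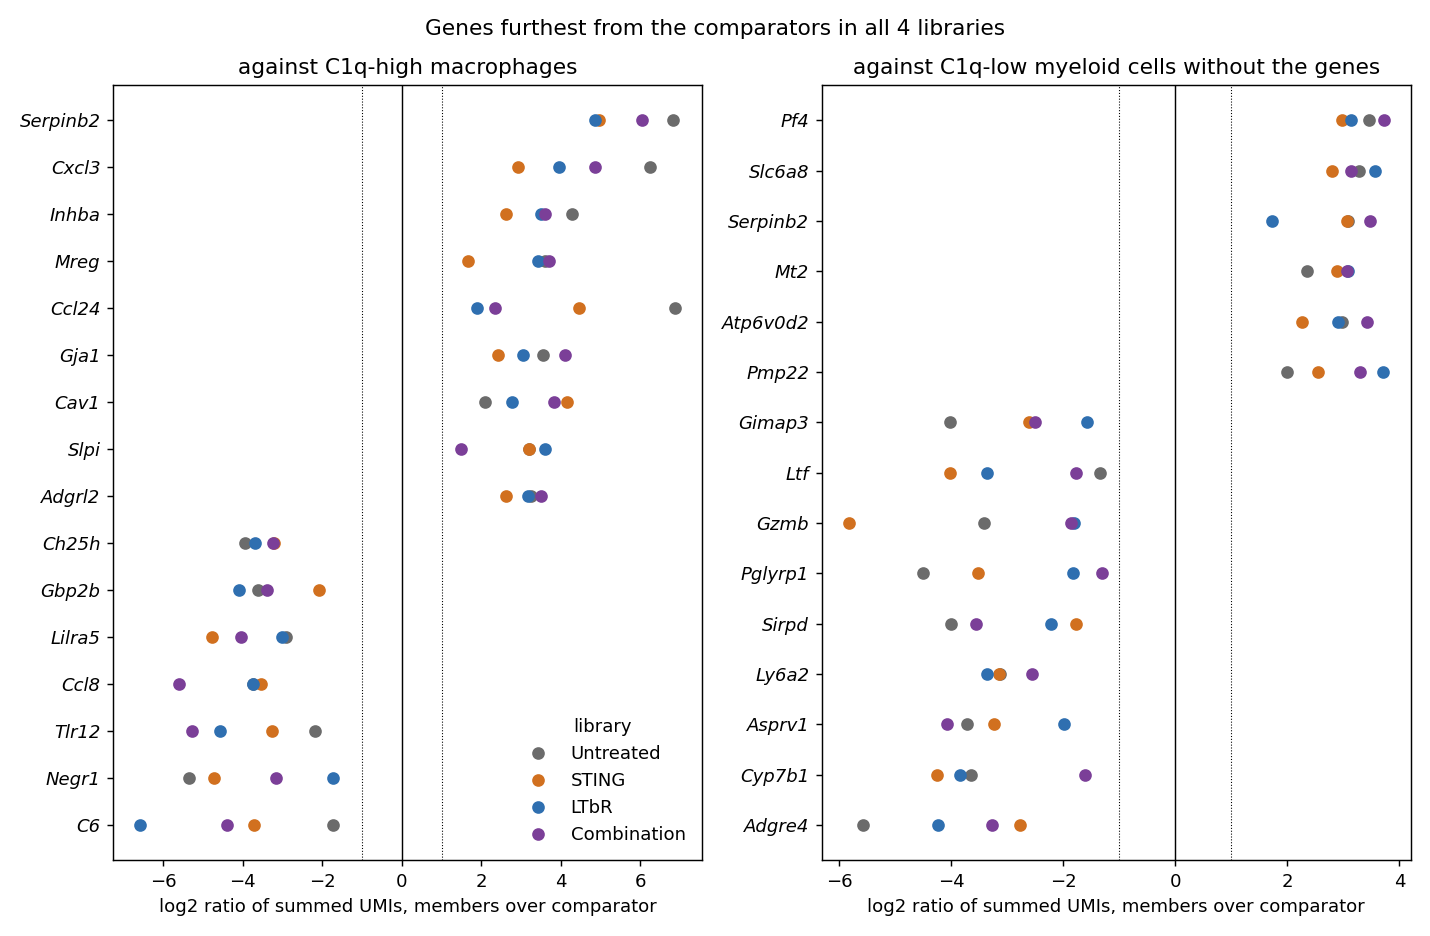
Log2 ratio of summed UMIs in members over C1q-high macrophages (left) and over C1q-low myeloid cells without the genes (right), 1 point per library, for the genes outside the rule that the text names; dotted lines mark 1 and -1. Every gene lies beyond a dotted line in all 4 libraries, as Serpinb2 does at 4.86 to 6.81 over C1q-high macrophages.

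Matrix genes differed from C1q-high macrophages in both directions. Of 17 counted proteases and protease inhibitors outside the rule, 5 were higher than in C1q-high macrophages in all 4 libraries and 2 were lower, against 1.89% and 2.35% of all genes. Against the C1q-low cells only 2 of 16 were higher (Mmp8 and Serpinb2) and 0 were lower, beside 1.23% and 1.12% of all genes. Ctsk, Timp1 and Mmp9 did not pass there. Collagenase Mmp8, which is also among the neutrophil markers summed further down, was at 97.6, 165, 59.1 and 76.8 CPM in members and 5.29, 14.8, 6.75 and 3.17 CPM in C1q-high macrophages, with 67.7% of its untreated UMIs in 1 cell. Cathepsin Ctsk, a collagen-degrading cysteine protease, was at 39.4, 84.9, 17.9 and 44.6 CPM against 2.06, 2.18, 2.16 and 2.26 CPM, and the metalloprotease inhibitor Timp1 at 128, 89.1, 84.2 and 105 CPM against 12.9, 26.2, 22.1 and 17.2 CPM. Mmp9 was also counted as higher, but on 1 UMI in untreated members. The inhibitor Timp2 (median log2 ratio -1.63) and gelatinase Mmp2, which had 1 to 3 UMIs per library of members, were the lower ones, and membrane protease Mmp14 was at 456 to 511 CPM in members and 363 to 464 CPM in C1q-high macrophages. Of 14 counted matrix and adhesion genes 2 were higher than in C1q-high macrophages (Spp1 and Vcan) and none were lower. Against the C1q-low cells 1 was higher (Spp1) and 1 was lower (Vcan), beside 1.23% and 1.12% of all genes. The secreted phosphoprotein Spp1 was at 3410, 3252, 2283 and 2441 CPM in members, 633, 1290, 885 and 616 CPM in C1q-high macrophages and 498, 957, 522 and 657 CPM in the C1q-low cells.

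Some genes of low oxygen and glycolysis were higher in members than in their neighbours. Against C1q-high macrophages 6 of 25 were higher in all 4 libraries and none were lower, against 1.89% of all genes higher, with a list median of 0.73 on the log2 scale where all counted genes had -0.18. Against the C1q-low cells 5 of 23 were higher and none were lower, against 1.23% of all genes higher, with a median of 0.93 against -0.10. Hilpda, which coats lipid droplets, was at 1069, 1361, 1156 and 1069 CPM in members, 195, 438, 333 and 303 CPM in C1q-high macrophages and 198, 665, 363 and 296 CPM in the C1q-low cells. The oxygen sensor Egln3 was at 534, 324, 641 and 461 CPM in members and 65.8, 104, 111 and 90.8 CPM in C1q-high macrophages, and Ndrg1 at 1083, 720, 902 and 989 CPM against 209, 304, 247 and 321 CPM. For all 3 genes the lowest library of members lay above the highest library of C1q-high macrophages. The angiogenic factor Vegfa differed less, at 702 to 836 CPM in members and 399 to 589 CPM in C1q-high macrophages, and was not counted.

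Iron, heme and lipid genes were counted next. The cystine transporter Slc7a11 (749, 1084, 905 and 953 CPM against 138, 435, 302 and 257 CPM) and glutathione reductase Gsr (219, 356, 281 and 356 CPM against 42.6, 101, 76.7 and 55.1 CPM) were 2 of the 3 genes of 19 in the iron, heme and antioxidant list that were higher than in C1q-high macrophages, and none were lower, against 1.89% and 2.35% of all genes. Against the C1q-low cells 2 of 19 in this list were higher (Mt2 and Ftl1) and 0 were lower, beside 1.23% of all genes higher. Slc7a11 and Gsr did not pass there. Ferritin heavy chain Fth1 was at 21595, 23958, 19565 and 18771 CPM in members and 9054, 13757, 9495 and 9523 CPM in C1q-high macrophages, short of the limit in the STING and combination libraries. In the lipid and lysosome list 4 of 24 genes were higher (Cd36, Cd9, Plin2 and Atp6v0d2) and 1 was lower than in C1q-high macrophages, against 1.89% and 2.35% of all genes. In the same list 7 of 24 were higher than in the C1q-low cells, against 1.23%. The lower gene was Apoe, the lipid carrier of mature macrophages, at 765, 771, 588 and 740 CPM in members, 7066, 6419, 5470 and 6293 CPM in C1q-high macrophages and 824, 719, 620 and 600 CPM in the C1q-low cells. Tfec, a MITF family factor of macrophages, was at 115 to 142 CPM in members, 41.9 to 50.4 CPM in C1q-high macrophages and 53.3 to 67.5 CPM in the C1q-low cells.

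Signals to other cells were compared in the same way. The EGF family ligand Hbegf was at 178, 138, 171 and 192 CPM in members and 13.8, 27.8, 33.8 and 35.5 CPM in C1q-high macrophages. In the lists that follow, the background against C1q-high macrophages was 1.89% of all genes higher and 2.35% lower. Of 11 inflammatory cytokine genes and enzymes 4 were higher than in C1q-high macrophages and none were lower, among them Ptgs2 (cyclooxygenase 2) at 1212, 2024, 1518 and 1519 CPM against 324, 925, 495 and 545 CPM and Nos2 (nitric oxide synthase) at 444, 727, 814 and 576 CPM against 115, 239, 243 and 192 CPM. Against the C1q-low cells 0 of 10 inflammatory cytokine genes passed in either direction, and the list summed to 7779, 14954, 10246 and 9523 CPM in members and 5774, 15183, 9451 and 8336 CPM in those cells. Chemokines were divided: Ccl3, Ccl24, Cxcl2 and Cxcl3 were higher and Ccl8, Ccl12, Cxcl9 and Cxcl14 were lower than in C1q-high macrophages, of 20 counted. Against the C1q-low cells 4 of 19 were higher (Ccl7, Ccl24, Cxcl3 and Pf4) and 1 was lower (Cxcl9), against 1.23% and 1.12% of all genes. Cxcl9, the interferon-induced T cell attractant, was at 45.7, 128, 99.1 and 103 CPM in members and 898, 757, 640 and 714 CPM in C1q-high macrophages. In the MHC class II list 3 of 12 genes were lower and none were higher than in C1q-high macrophages, with H2-Eb1 at 1828, 1859, 2458 and 2594 CPM against 5444, 4909, 5872 and 7776 CPM. The agonist target Sting1 was lower as well, at 36.2, 30.8, 39.4 and 39.6 CPM against 93.3, 79.3, 86.4 and 86.5 CPM, and Ltbr, at 20.5 to 37.2 CPM in members against 39.2 to 47.2 CPM, was not counted. Against the C1q-low cells 1 of 12 MHC class II genes was lower (Ciita) and 0 were higher. Of 17 counted genes of the STING and LTbR pathway list, Sting1 among them, 0 passed there in either direction.

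Cell cycle genes were low. Of 16, 6 were lower in members than in C1q-high macrophages in all 4 libraries and none were higher, against 2.35% of all genes lower, with a median log2 ratio of -1.67 where all counted genes had -0.18. Stmn1 was at 6.30, 10.4, 14.9 and 13.6 CPM in members and 66.4, 37.9, 50.3 and 48.0 CPM in C1q-high macrophages. Against the C1q-low cells 0 of 6 counted cycle genes passed in either direction. Of 10 monocyte genes 7 were lower than in the C1q-low cells, against 1.12% of all genes, and none were higher. Against C1q-high macrophages 2 of 9 were higher (Vcan and Hp), against 1.89%, and none were lower. Among the 7 were the chemokine receptor Ccr2 at 239, 276, 297 and 266 CPM against 730, 553, 877 and 723 CPM, Ly6c2 at 220, 113, 110 and 134 CPM against 446, 259, 417 and 423 CPM, and Plac8 at 740, 842, 514 and 415 CPM against 1850, 2028, 1902 and 1683 CPM. None of the counted genes in the interferon-stimulated list (35 against C1q-high macrophages, 34 against the C1q-low cells) and none of 14 MHC class I genes passed against either neighbour. Cxcl9, counted with the chemokines, was lower than in both, and Gbp2b, in neither list, was lower than in C1q-high macrophages.

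Members with a Pgf or Mmp13 UMI were set against members that had only Mmp12 and Gpnmb. The first kind made up 94.0% of untreated members, 80.7% with the STING agonist, 85.5% with the LTbR agonist and 88.6% with the combination, which left 5, 74, 41 and 23 cells of the second kind. Of 2785 genes, 12 (0.431%) were higher in the first kind in all 4 libraries and 1 (0.0359%) was lower; Mmp13, Pgf and Gpnmb among them follow from the split. The other 10 were the decoy receptor Il1r2 (median log2 ratio 2.25), Serpinb2 (3.15), Dapp1 (1.71), Cxcl10 (2.47), Ifitm1 (2.68), Cdh1 (1.64), Pkib (1.82), the lectin Mgl2 (3.29), Rnf180 (2.39) and Timp1 (1.03 to 2.29 over the libraries). Cells of the first kind were also deeper, with a median of 7711 against 5826 UMIs with the STING agonist, 6486 against 4065 untreated, 5436 against 5219 with the LTbR agonist and 3411 against 3003 with the combination. The part of depth in these ratios was not tested.

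For the agonists, UMIs were summed over the members of a library, and a gene entered a comparison when both libraries together held 100 or more of its UMIs; a gene is called higher or lower at a log2 ratio of 1 or -1. The comparisons with the untreated library share its 84 cells, so a gene that stood out in those cells differs in all of them. With the STING agonist 2.29% of 4893 genes were higher and 1.78% were lower, with the LTbR agonist 1.22% and 0.571% of 3851, and with the combination 1.58% and 0.441% of 2724. The calls depended on single cells. Without the 1 member that held most UMIs of each gene in each library, 187 instead of 112 genes were higher and 36 instead of 87 lower with the STING agonist. The counts were 77 instead of 47 and 10 instead of 22 with the LTbR agonist, and 65 instead of 43 and 7 instead of 12 with the combination. Taking out 1 cell removes more of an 84-cell sum than of a 383-cell sum.

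With the STING agonist, inflammatory genes were higher in members. Of 10 counted inflammatory cytokine genes 5 were higher and none were lower, against 2.29% of all genes, and the list median was 1.21 on the log2 scale where all counted genes had -0.12. Tnf was at 94.5 CPM (60 UMIs) in untreated members, 359 with the STING agonist, 121 with the LTbR agonist and 175 with the combination, a log2 ratio of 1.92 for the STING agonist (1.55 to 2.33). Il1a, the alarmin interleukin 1 alpha, was at 597, 1680, 831 and 842 CPM, a log2 ratio of 1.49 (1.34 to 1.65). Il6 was at 74.0, 261, 153 and 129 CPM, with 61.7% of the untreated UMIs in 1 cell, and the anti-inflammatory Il10 at 6.30, 50.2, 19.1 and 18.6 CPM. For Tnf, Il1a and Il6 the STING library lay above the 3 others, and Il6 was also called higher with the LTbR agonist. Il23a, a subunit of the cytokine that sustains Th17 cells, was at 0, 71.6, 28.7 and 52.0 CPM, from 0, 30, 9 and 8 members, and with the LTbR agonist and the combination it was under the minimum of 100 UMIs and not counted. Its 221 UMIs with the STING agonist give a log2 ratio of 3.92 when the untreated sum is set to the 3 UMIs that a count of 0 allows. The exact 95% interval began at 3.61. Il1b, the main inflammasome product, was at 4416, 8415, 5662 and 5280 CPM and stayed just under the limit with the STING agonist, at 0.93 (0.87 to 0.99).

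Several chemokines were also higher with the STING agonist. Ccl3 was at 663, 1491, 823 and 1037 CPM, Ccl4 at 743, 1936, 1183 and 1464 CPM, and Cxcl2, which draws neutrophils, had 5496, 11800, 6276 and 7116 CPM, so that the STING library was highest for each. With Cxcl1 and Cxcl9 they made 5 of 17 counted chemokines higher, against 2.29% of all genes, and Ccl24 was lower. In the STING and LTbR pathway list 2 of 13 counted genes were higher (Nfkbia and Tnfaip3) and 1 was lower (Map3k14, at 48.8 CPM untreated and 24.6 with the STING agonist), against 2.29% and 1.78% of all genes. Nfkbia, the inhibitor that NF-κB induces on itself, was at 986, 2594, 1403 and 1559 CPM (log2 ratio 1.39, 1.28 to 1.52) and Tnfaip3 (A20) at 397, 911, 576 and 608 CPM (1.20, 1.01 to 1.39). The acute phase protein Saa3 had no UMI in untreated members and 639 UMIs in 53 members with the STING agonist. Cxcl1 had none and 205 UMIs in 16 members. With the untreated sum set to 3 UMIs the log2 ratios were 5.45 and 3.81, and the exact 95% intervals began at 5.15 and 3.50. Of the other named genes, Cd200, an inhibitory ligand of myeloid cells, had 1 UMI in untreated members and 118 UMIs in 50 members (log2 ratio 4.02, 2.10 to 9.92), Lif, a cytokine of the IL-6 family, 2 UMIs and 108 UMIs in 39 members, Pcdh7 3 UMIs and 163 UMIs in 47 members, the noncoding RNA Eldr 1 UMI and 111 UMIs in 41 members, and Cav1 5 UMIs and 197 UMIs in 30 members. Timp3 was named by the same rule, but its 124 UMIs came from 4 cells.

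Neutrophil transcripts moved with the STING library too. The 8 neutrophil markers, Mmp8 among them, summed to 181 CPM in untreated members, 899 with the STING agonist, 711 with the LTbR agonist and 442 with the combination. Retnlg, G0s2 and Ly6g were at 0 in untreated members and none were at 0 with the STING agonist. S100a8 or S100a9 had a UMI in 11 of 84, 124 of 383, 34 of 282 and 29 of 202 members, and S100a8 in T cells of the same libraries was at 9.91, 370, 67.3 and 443 CPM. In members without an S100a8 or S100a9 UMI these genes kept a log2 ratio above 1: there Tnf was at 101 CPM in untreated members and 395 with the STING agonist (log2 ratio 1.96), Il1a at 591 and 1636 CPM (1.47), Il6 at 82.0 and 283 CPM (1.77), Ccl3 at 656 and 1348 CPM (1.04) and Nfkbia at 958 and 2624 CPM (1.45). Free neutrophil RNA can remain in such members, and its part in these ratios was not tested. In C1q-high macrophages of the same libraries Tnf was at 63.3 and 213 CPM, Il1a at 219 and 540 CPM and Nfkbia at 513 and 1343 CPM in the untreated and STING libraries, so they were higher with the STING agonist there too.

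Of 32 counted genes in the interferon-stimulated list 1 was higher and 3 were lower with the STING agonist on day 14, against 2.29% and 1.78% of all genes. Cxcl9, higher with the STING agonist, was counted with the chemokines. The higher gene was Irf1, at 50.4 CPM untreated and 131, 139 and 141 CPM in the STING, LTbR and combination libraries, and the lower ones were Ifit2 (150, 63.2, 103 and 63.2 CPM), Ifit3 (64.6, 21.7, 32.8 and 31.0 CPM) and Mx1 (75.6, 30.8, 41.2 and 37.2 CPM). The median of the list was -0.25 against -0.12 for all counted genes. None of the 14 counted MHC class I or 11 class II genes and none of the 24 hypoxia and glycolysis genes passed with the STING agonist.

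Of 8 counted genes of alternative activation and scavenging 3 were lower with the STING agonist (Mrc1, Mgl2 and Pdcd1lg2) and none were higher, against 1.78% of all genes lower. The list median was -0.25 where all counted genes had -0.12. Cd36, Ccl24 and Mertk, which belong to other lists, were lower as well. The mannose receptor Mrc1 was at 1082 CPM in untreated members (687 UMIs in 35 cells), 324 with the STING agonist, 529 with the LTbR agonist and 437 with the combination, lowest in the STING library, and its log2 ratio of -1.74 became -1.45 without the top cell of each library. The fatty acid receptor Cd36 was at 168, 46.3, 80.0 and 100 CPM (-1.86, -2.23 to -1.49), and the lectin Mgl2 at 86.6 and 22.7 CPM, with 60.0% of the untreated UMIs in 1 cell. Ccl24 was at 1176, 342, 434 and 160 CPM, from 13 untreated cells of which 1 held 43.2%. The engulfment receptor Mertk was at 408, 128, 144 and 141 CPM, but 56.4% of its untreated UMIs came from 1 cell, and without that cell the STING ratio of -1.67 became -0.53. That same cell, with 3.14% of all untreated UMIs, held more untreated UMIs than any other member for 9 of the 23 genes named as lower against untreated, from 18.1% of them for Plcl2 to 57.7% for Psd3. Beside Mertk these were Plxdc2, Psd3, St7, Plcl1, Plcl2, Tnfsf8, Prkag2 and Trerf1. Lrp6, the remaining named gene, was at 70.9 and 22.7 CPM.

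**Figure D3:**
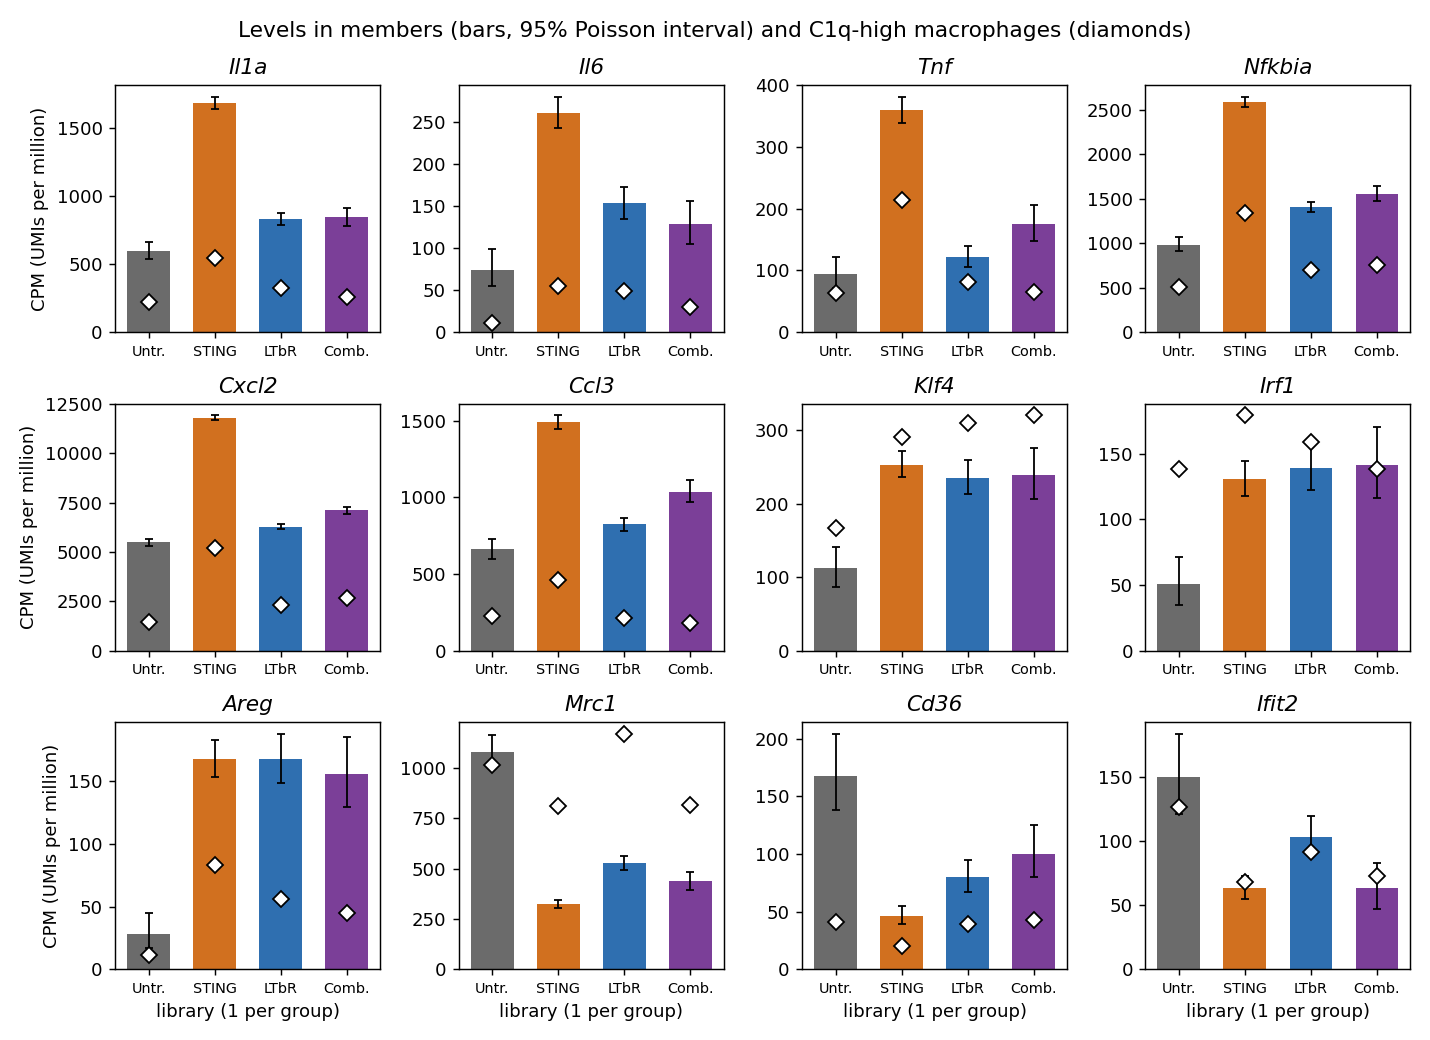
Summed level (y axis, CPM) of 12 genes in members of each library (bars, with 95% Poisson intervals) and in C1q-high macrophages (diamonds). The STING agonist bar is the tallest for Il1a, Il6, Tnf, Nfkbia, Cxcl2 and Ccl3, and the untreated bar for Mrc1, Cd36 and Ifit2.

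With the LTbR agonist fewer genes differed and several rested on few cells. Areg, the EGF family ligand amphiregulin, was at 28.3 CPM in untreated members, 167 with the STING agonist, 167 with the LTbR agonist and 155 with the combination, a log2 ratio of 2.52 for the LTbR agonist (1.87 to 3.33), from 6 untreated and 29 treated cells. The transcription factor Klf4 was at 112, 253, 235 and 239 CPM (1.07, 0.71 to 1.46), lowest in the untreated library. The Th2 attractant Ccl17 was at 12.6, 13.6, 290 and 124 CPM, from 1 cell in the untreated library and 17 with the LTbR agonist, so both libraries with the LTbR agonist were higher than the 2 without it. Slpi was at 998, 1377, 2931 and 1744 CPM, with 38.4% of the LTbR agonist UMIs in 1 cell. Among the largest ratios, Saa3 (541 UMIs, 53.6% in 1 of 12 cells), Lyz1 (133 UMIs, 90.2% in 1 of 3 cells) and Retnla (367 UMIs, 74.9% in 1 of 7 cells) were set by single cells. Ly6i (64.6 and 189 CPM), the lipase Lpl (17.3 and 55.5 CPM), the co-chaperone Bag3 (20.5 and 62.7 CPM) and Arap2 (20.5 and 59.1 CPM) were the other higher genes named.

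Lower with the LTbR agonist, beside Mertk, Ccl24, Psd3 and St7, were the urokinase Plau (110 and 49.6 CPM, log2 ratio -1.15), Ms4a7 (230 and 99.1 CPM, -1.21), Cxcl3 (2440 and 1153 CPM, -1.08), Vps37b (-1.19), Prkag2 (-1.34) and the histone gene H4c4 (-1.34). Plau and Ms4a7 kept ratios of -1.14 and -1.17 without the top cell of each library, while Cxcl3 went to -0.73. H4c4 had 47.1% of its untreated UMIs in 1 cell, and its ratio changed sign without members with markers of another class. Of the lists, chemokines had 2 higher (Ccl17 and Cxcl9) and 2 lower of 17, inflammatory cytokines 1 higher of 7 (Il6), interferon-stimulated genes 2 higher of 28 (Irf1 and Iigp1), and MHC class II 0 of 11, against 1.22% and 0.571% of all counted genes. The MHC class II median was 0.38 on the log2 scale.

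With the combination the higher genes named were Ccl17, Areg, thrombomodulin Thbd (23.6 and 118 CPM, log2 ratio 2.28), the phosphatidylserine binder Mfge8 (28.3 and 133 CPM, 2.19), the protein C receptor Procr (31.5 and 133 CPM, 2.04), the ubiquitin ligase Fbxo32 (50.4 and 207 CPM, 2.02), the nuclear receptor Nr4a3 (105 and 411 CPM, 1.95), the oxidized lipid receptor Olr1 (91.3 and 317 CPM, 1.79), metallothionein Mt2 (126 and 396 CPM, 1.65) and Dach1 (39.4 and 118 CPM, 1.56). The 8 untreated UMIs of Ccl17 came from 1 cell. Mt2 was at 126, 169, 307 and 396 CPM over the 4 libraries, higher in both libraries with the LTbR agonist. Thbd was at 23.6, 84.2, 39.4 and 118 CPM, higher in both libraries with the STING agonist. Lower were Ccl24 (-2.87), Mertk (-1.53), Ms4a7 (-1.51), Ms4a4a (-1.46), Mrc1 (-1.31), Ifit2 (-1.24), the factor Maf of mature macrophages (205 and 94.2 CPM, -1.12), Psd3 (-1.04), Plcl2 (-1.01) and Rsbn1 (-1.01). Of 7 counted inflammatory cytokine genes none passed with the combination, and of 16 chemokines 2 were higher and 1 was lower, against 1.58% and 0.441% of all genes. Il10 (6.30 and 18.6 CPM) and Il23a (0 and 52.0 CPM) were under the minimum of 100 UMIs and were not among the 7.

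Set against the single agonists, the combination library was lower than the STING library for some inflammatory genes. Of 10 counted inflammatory cytokine genes 4 were lower (Il6, Tnf, Il10 and Il18) and none were higher, where 1.83% of 5027 genes were higher and 1.07% were lower. The list median was -0.83 on the log2 scale where all counted genes had 0.08. The log2 ratio was -1.04 for Tnf (-1.30 to -0.79), -1.01 for Il6 (-1.33 to -0.72), -0.99 for Il1a (-1.11 to -0.88) and -0.73 for Nfkbia (-0.82 to -0.65). Il1a and Nfkbia did not reach the limit. Higher than with the STING agonist were Ccl17 (3.18), Mfge8 (3.05), Plxdc2 (2.80), the VEGF receptor Flt1 (2.73), Mgl2 (2.60) and Pdcd1lg2 (PD-L2, 1.84), and among the lowest were Gpr84 (-3.54), a receptor for medium-chain fatty acids, Cxcl1 (-2.36) and Saa3 (-1.57). Against the LTbR library 0.497% of 4027 genes were higher in the combination and 0.596% were lower. Of 7 counted inflammatory cytokine genes 0 passed there in either direction. Procr (1.75), Thbd (1.57), Gdf15 (1.47) and Mfge8 (1.42) were the largest higher ratios in the combination there, and Retnla (-3.42), Saa3 (-2.21), Id1 (-1.57), Isg20 (-1.48) and Ccl24 (-1.44) the largest lower ones.

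**Figure D4:**
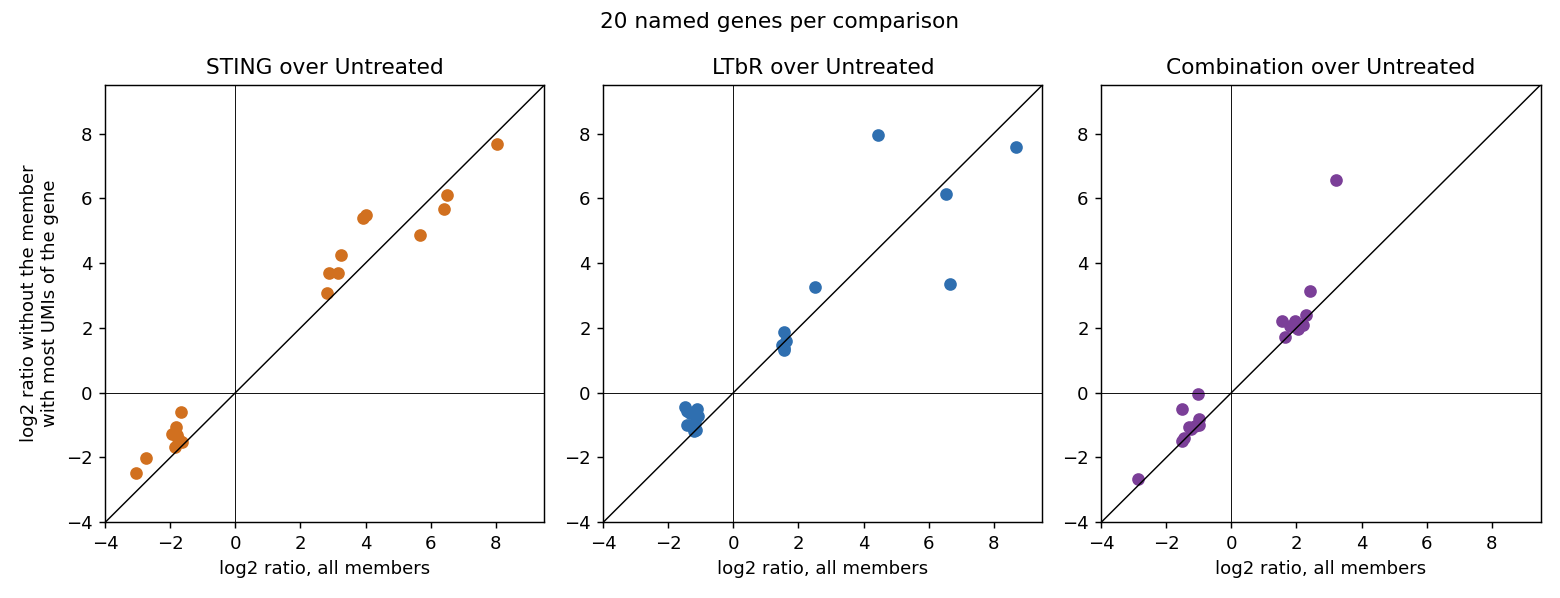
Log2 ratio to the untreated library of the 20 named genes per agonist group, with all members (x axis) and without the member that held most UMIs of the gene in each library (y axis); the diagonal marks equal values. Most lower genes lie above the diagonal, nearer to 0, as Mertk does at -0.61 in place of -1.67 with the STING agonist.

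Markers of other cells were summed over the members of each library. T cell markers summed to 3.24 to 26.3 CPM, NK cell markers to 0 to 15.5 CPM, fibroblast markers to 3.58 to 8.67 CPM, and all 5 mast cell and basophil markers were at 0 in every library. Dendritic cell markers summed to 42.5, 21.4, 57.3 and 135 CPM. B and plasma cell markers summed to 236, 2.91, 370 and 867 CPM, mostly Jchain (131, 1.62, 263 and 823 CPM), of which 96.4% of the untreated and 72.3% of the LTbR agonist UMIs lay in 1 cell each. Carcinoma markers summed to 104 to 135 CPM in members and 32.7 to 57.3 CPM in C1q-high macrophages, mostly Cdh1, which members carried at 68.7 to 122 CPM and C1q-high macrophages at 25.0 to 50.4 CPM. Endothelial markers summed to 78.7 to 107 CPM in members and 40.9 to 57.2 CPM in C1q-high macrophages, mostly Pecam1, and members lay above C1q-high macrophages in all 4 libraries for both lists. The osteoclast markers summed to 331, 309, 432 and 668 CPM, with Calcr and Oscar at 0 in all libraries. The part of these cells in the other values was not tested. Kept barcodes shared between pairs of libraries numbered 32 to 77, and 1 barcode was a member in both the untreated and STING libraries.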

How the data were processed

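The authors sorted live CD45+ cells, prepared 10x 5′ libraries and deposited filtered raw UMI counts per gene and barcode for 33696 features. The labels name Cell Ranger 7.1.0 and mm10, and the deposited file headers name Cell Ranger 8.0.1. Deposited barcodes held 62248447, 85855398, 73704334 and 52109958 UMIs in the untreated, STING, LTbR and combination libraries. Barcodes with 300 to 5000 genes and at most 6% mitochondrial UMIs were kept, and the rule given in the text was applied to them. No doublet caller was run, and barcodes with markers of another class or with most UMIs were left out as alternatives. UMIs were summed per library and scaled to CPM with exact Poisson intervals. Log2 ratios used sums plus 0.5, with exact binomial intervals, and genes under 100 UMIs over the 2 libraries (400 against neighbouring cells) were not counted. With 1 library per group no test was made, and intervals and limits cover counting error only. A count of 0 was given the limit of 3 UMIs or cells.

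Named genes were the 10 highest and 10 lowest log2 ratios per comparison, without immunoglobulin, T cell receptor, mitochondrial, ribosomal protein, sex-linked, predicted and haemoglobin genes and markers of other cells, beside genes of the lists. A few of these genes are not reported here. The members, lists and rules were chosen with earlier results of these data known. Motif counts used RefSeq start windows of GRCm38.p6. Scripts ran in Python 3.11.15 with numpy 2.4.6, scipy 1.17.1, pandas 2.3.3 and matplotlib 3.10.9 and were tested on simulated data.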

Additional observations from a re-analysis of the deposited data

Results flagged for a closer look

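In 3 comparisons a gene named above was lower in members and higher in C1q-high macrophages of the same libraries. With the LTbR agonist Ccl24 had a log2 ratio of -1.44 in members and 3.54 in C1q-high macrophages, where it was at 10.0 CPM untreated and 117 CPM treated. With the combination Ccl24 had -2.87 in members and 1.65 in C1q-high macrophages. With the LTbR agonist Cxcl3 had -1.08 in members and 1.22 in C1q-high macrophages, at 32.3 and 75.4 CPM. The difference between the 2 cell groups was not tested, since each group is 1 library. The untreated value of Ccl24 came from 13 members, 1 of which held 43.2% of it, and that of Cxcl3 from 24 members, 1 of which held 29.2%.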

How the results depend on the processing

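No paired analysis was possible because each group has 1 library, and for the same reason no replicate could be left out. The member share stayed higher with the STING agonist (2.47 to 3.07 times untreated) and the LTbR agonist (1.47 to 1.86) under every alternative run, while the combination ranged from 0.830, with detection at 2 UMIs, to 1.20. The combination stood at 0.472 of the STING share and 0.772 of the LTbR share after thinning to 2000 UMIs, and at 0.481 of the STING share among all kept barcodes.

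Counts of genes depended on the minimum. At 20 UMIs, 412 genes were higher and 545 lower with the STING agonist, 317 and 215 with the LTbR agonist, 256 and 162 with the combination, 530 and 267 in the combination over STING and 216 and 185 over LTbR. With no minimum these were 1076 and 2545, 1273 and 1980, 2708 and 1899, 2895 and 954, and 2572 and 1336. After thinning they were 242 and 275, 136 and 82, 84 and 57, 172 and 140, and 46 and 74. With each cell weighted equally, 38 genes were lower with the LTbR agonist, 20 with the combination and 84 in the combination over STING, and 32 were higher over LTbR. Without members with markers of another class, 158 were lower with the STING agonist, 55 with the LTbR agonist and 23 with the combination, 71 were higher with the combination and 42 over LTbR. The cause of these shifts was not tested.

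Further alternatives were chosen after seeing the data. Without the member with most UMIs of each gene, 187 genes were higher and 36 lower with the STING agonist, 77 and 10 with the LTbR agonist, 65 and 7 with the combination, and 86 were lower in the combination over STING. Of these, 35, 7 and 7 of the lower genes against untreated were called with all members too. Without members with an S100a8 or S100a9 UMI, 35 genes were lower with the LTbR agonist and 20 with the combination.

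Named genes that changed sign were Timp3 with the STING agonist (-0.54) and H4c4 with the LTbR agonist (0.06), both without members with markers of another class, Lpl with the LTbR agonist at a C1q limit of 20 per 10000 (-1.29), and Psd3 with the combination without 1 untreated member (0.15). Of 60 gene values none moved on centring ratios on the median and 20 moved on thinning. Genes under the chosen minimum of 100 UMIs were left uncounted in the report.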
